A study of Mus musculus with 4 samples.

Results

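Peroxisome genes other than the antioxidant enzymes were compared between bone marrow derived macrophages (BMMs) that received RANKL with dimethyl itaconate (DI) and BMMs that received RANKL with DMSO. The members were the genes that the deposited annotation places in the KEGG Peroxisome pathway, less Cat, Prdx1, Prdx5, Sod1, Sod2, Idh1, Idh2, Nos2 and Gstk1. The pathway held 82 of the 34745 genes in the table, and 73 members were left after those 9 antioxidant and related genes were set aside. Of the 73 members, 16 were Pex genes, whose products build the organelle, 5 were proteins of the peroxisome membrane or their relatives (Pxmp2, Pxmp4, Mpv17, Mpv17l and Mpv17l2), and 52 were enzymes and transporters.

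BMMs are bone marrow cells that M-CSF, a growth factor, has turned into macrophages, and RANKL is the cytokine that drives them towards osteoclasts, the cells that resorb bone. The cells came from wild type C57BL/6 males aged 8 weeks, were kept without serum for 12 h, and then received RANKL at 100 ng/mL for 24 h in both groups, together with DI or DMSO, the solvent. The labels put DI, a form of itaconate that crosses the cell membrane, at 20 mM, whereas the methods of the study write the same number in μM. Each group had 2 libraries, and the labels do not say whether these came from separate mice or cultures, so that p-values measure the spread between these libraries, which may be technical.

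Peroxisomes are small organelles bounded by a single membrane. They shorten very long and branched fatty acids by beta- and alpha-oxidation and carry out the first steps of ether lipid (plasmalogen) synthesis. Their oxidases release hydrogen peroxide, which some of the antioxidant enzymes left out here remove. Enzymes made in the cytosol enter through a machinery of peroxins, the products of the Pex genes, and macrophages use peroxisomes in lipid handling and in inflammatory signalling.

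The response of these genes to DI was small. Of the 73 members, 61 had enough counts to be tested, and Acox3, which encodes an acyl-CoA oxidase for branched fatty acids, was the only member that passed edgeR's quasi-likelihood test at an adjusted p under 0.05. It was higher with DI. Of all 12590 tested genes, 14.8% passed the same test. As shares of all tested genes, 7.14% passed and were higher with DI, and 7.7% passed and were lower. None of the 15 tested Pex genes, none of the 5 membrane proteins and 1 of the 41 tested enzymes and transporters passed. At an unadjusted p under 0.05 in the edgeR test there were 15 members, 10 with higher and 5 with lower fitted values, against 30% of all tested genes. DI and DMSO libraries did not overlap in 30 members, or 49.2% of those tested, against 58.6% of all tested genes. By either of these looser measures the members' share was nearer to that of all genes than it was at the adjusted threshold.

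The sizes of the differences were also narrow. Fitted log2 fold changes (DI over DMSO) of the tested members ran from -0.35 for Pex10 to 0.55 for Mpv17, with a median of 0.07, and 37 lay above and 24 below 0. The median size of a log2 fold change, whatever its sign, was 0.122 over the members and 0.163 over all tested genes. Only Mpv17 and Abcd2 had a fitted size of at least 0.5, which is 3.28% of the members against 13.3% of all tested genes, and no member reached 1, which 2.98% of all tested genes did. A gene that misses the threshold may still differ, and the 95% intervals show by how much. For 42 members (68.9%) the whole interval lay within 0.5 of 0 on the log2 scale, against 56.8% of all tested genes. It reached 1 in either direction for Pex11g and Pxmp2 alone, both with only 20 to 55 counts in a library.

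**Figure D1:**
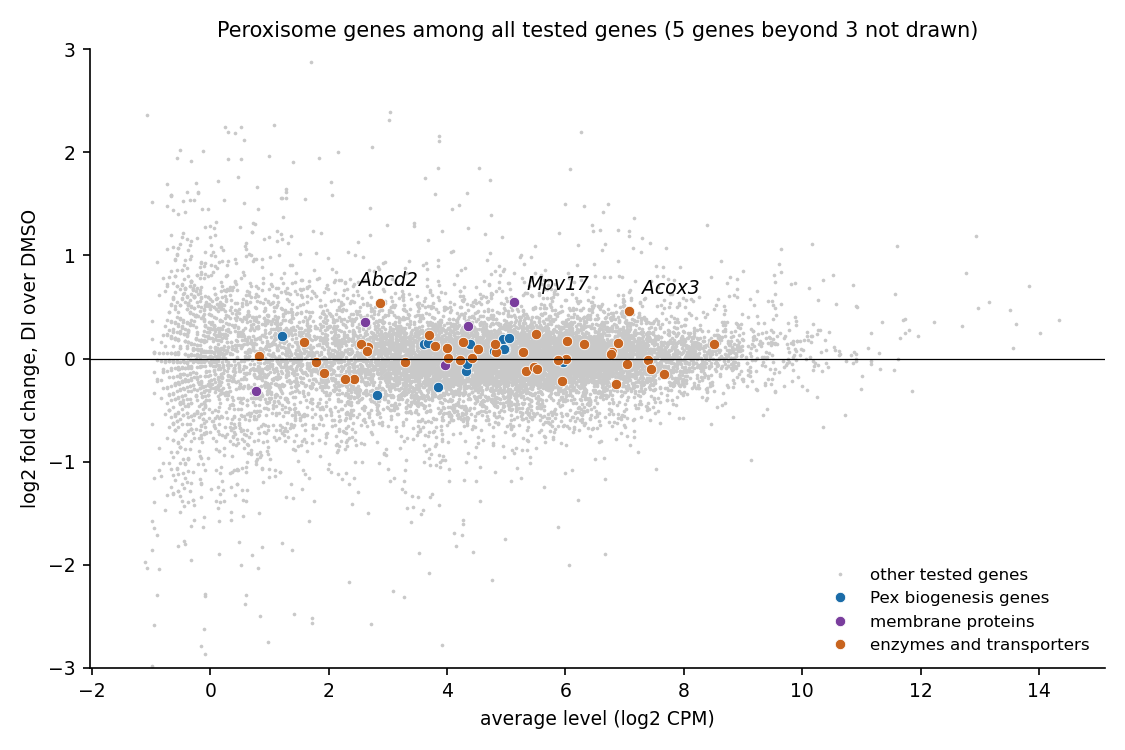
Fitted log2 fold change (DI over DMSO) against the average log2 CPM for all tested genes, with the Pex genes, the membrane proteins and the enzymes and transporters marked over the other tested genes. The members lie between -0.35 and 0.55 on the vertical axis, and 5 genes beyond 3 in either direction are not drawn.

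The libraries held 16085692 to 19403480 counts. CPM, the counts of a gene scaled to a common library size, are given on the TMM scale, which corrects for a few abundant transcripts taking up more of a library, and values of a group are mean ± SD of 2 libraries. The members together took up 2906 and 2846 CPM with DI and 2780 and 2798 CPM with DMSO. The Pex genes summed to 338 and 335 CPM with DI against 324 and 326 CPM with DMSO, and the enzymes and transporters to 2484 and 2421 CPM against 2391 and 2398 CPM. Both sums were higher in each DI library than in each DMSO library, by a small margin.

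That margin rested on the scaling. As a share of the raw library total the Pex genes took 0.0325% and 0.0324% with DI against 0.0336% and 0.0338% with DMSO, and the enzymes 0.239% and 0.234% against 0.248% and 0.248%, the opposite order. Scaling by library size alone moved the median of all tested genes from 0.00117 to -0.102 and the split of calls from 899 higher and 969 lower to 548 higher and 1932 lower. In that setting the medians were -0.00636 for the Pex genes and -0.05849 for the enzymes, which are still above that shifted median of all genes.

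RNA of a whole culture was measured, in which fewer cells of a type and less RNA per cell cannot be told apart. Markers of osteoclasts were lower with DI, with 5 of the 6 tested markers called lower and the 7 listed markers summing to 181 and 169 CPM against 311 and 297 CPM, and the osteoclast receptor Calcr had no count. Of 7 macrophage markers 5 were called higher and Fcgr1 lower, and they summed to 28380 and 29190 CPM against 23040 and 22170 CPM. Markers of B cells, mast cells and basophils, and erythroid cells each summed to at most 0.540 CPM, with Pax5 at 0. Those of T and NK cells summed to 1.28 to 2.76 CPM with Cd3e, Cd8a and Ncr1 at 0, those of neutrophils to 7.25 to 9.90 CPM and those of stromal cells to 37.3 to 45.3 CPM, with no gene called by edgeR and Cd4 and S100a8 at an unadjusted p under 0.05. The part of these shifts in the members' values was not tested.

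Acox3 (ENSMUSG00000029098, chr5:35583040-35615352, plus strand, GRCm38) encodes the oxidase that starts the peroxisomal breakdown of branched acyl-CoA esters. Its counts were 2705 and 2924 with DI and 2125 and 1892 with DMSO, which is 158 and 156 CPM against 114 and 114 CPM. The libraries of a group nearly coincided and the groups were well apart. The log2 fold change was 0.46 (SE 0.041, 95% interval 0.36 to 0.56, adjusted p = 0.00214 with edgeR), a level 37.7% higher with DI (28.4% to 47.6%), and its p-value ranked 183 of the 12590 genes tested. Acox3 passed in each of the 11 other settings of the test, though its size is under an added minimum of 0.5, with log2 fold changes from 0.36 to 0.47 and adjusted p from 1.36e-08 to 0.0126. A gene on the opposite strand, 4931431C16Rik, overlaps 6.08% of its exons and had a mean of 2 counts.

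The 250 bases before the RefSeq start of Acox3 are shown because it is the member that passed the adjusted threshold. They are chr5:35582784-35583033 on the plus strand of GRCm38.p6, with the 50 bases next to the start in capitals. G and C made up 60% of them.
Acox3 upstream region: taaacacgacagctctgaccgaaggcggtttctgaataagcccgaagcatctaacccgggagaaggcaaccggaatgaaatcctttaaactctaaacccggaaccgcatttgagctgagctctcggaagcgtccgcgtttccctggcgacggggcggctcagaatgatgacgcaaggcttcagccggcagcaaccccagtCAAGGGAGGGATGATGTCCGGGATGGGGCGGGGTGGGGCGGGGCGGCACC

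**Figure D2:**
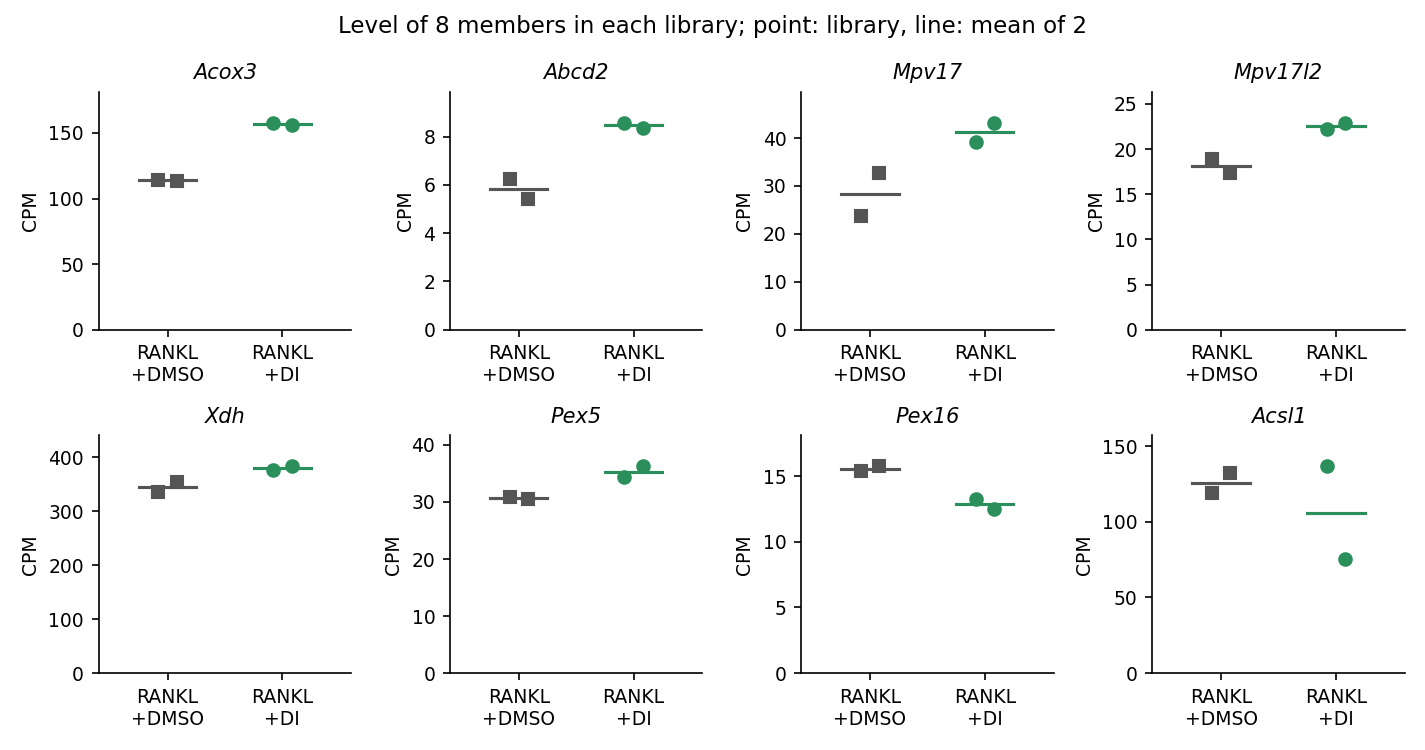
CPM of 8 members in each library, as a point per library and a line at the mean of the group, with DI and DMSO side by side. The DI and DMSO points of Acox3 are far apart next to their spread, those of Abcd2, Mpv17, Mpv17l2, Xdh, Pex5 and Pex16 are apart by less relative to it, and the 2 DI points of Acsl1 lie on either side of its DMSO points.

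The Pex genes are described first by their step in building the organelle. Pex5 and Pex7 encode the import receptors, which bind the targeting signals of enzymes in the cytosol. Pex5 had 34.4 and 36.2 CPM with DI and 30.9 and 30.4 CPM with DMSO, so that both DI libraries were higher, with a log2 fold change of 0.20 (SE 0.068, adjusted p = 0.107 with edgeR). Pex7 had 20.6 and 22.9 CPM against 19.6 and 19.9 CPM and a log2 fold change of 0.14 (95% interval -0.09 to 0.37). The related receptor gene Pex5l had no count in any library. Pex13 and Pex14 encode the docking complex on the membrane, at which loaded receptors arrive. Their log2 fold changes were 0.19 (SE 0.077, adjusted p = 0.159 with edgeR) for Pex13, whose groups did not overlap, and 0.07 (95% interval -0.13 to 0.28) for Pex14.

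After import the receptors are ubiquitinated and pulled out of the membrane. Of the RING ubiquitin ligases of that step, Pex10 had 6.29 and 5.92 CPM with DI and 7.84 and 7.74 CPM with DMSO, with a log2 fold change of -0.35 (SE 0.13, adjusted p = 0.132 with edgeR). Its partner Pex2 had 32.1 ± 0.754 CPM with DI and 30.1 ± 0.21 CPM with DMSO, with a log2 fold change of 0.09 (95% interval -0.07 to 0.26). The fitted values of these partners thus lay on opposite sides of 0, and neither passed. Pex6 encodes an AAA ATPase that extracts the receptors, and Pex26 its membrane anchor. Their log2 fold changes were 0.10 (95% interval -0.09 to 0.29) and 0.14 (-0.17 to 0.44), with groups that overlapped in both.

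Pex3, Pex16 and Pex19 place proteins into the peroxisome membrane, and Pex19 is the receptor for them in the cytosol. Pex16 had 13.2 and 12.5 CPM with DI and 15.4 and 15.7 CPM with DMSO, lower in both DI libraries, with a log2 fold change of -0.28 (SE 0.1, adjusted p = 0.126 with edgeR). With scaling by library size alone Pex16 was called lower (log2 fold change -0.38, adjusted p = 0.0470 with edgeR). That call is read against the shift of all genes in that setting, whose median was -0.102. Pex3 and Pex19 had log2 fold changes of -0.06 (95% interval -0.27 to 0.16) and -0.03 (-0.23 to 0.16). All 3 genes of this step had fitted values below 0.

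Pex11a and Pex11g encode proteins that elongate and divide peroxisomes, and Pex11a is known as the form induced by peroxisome proliferators. Pex11a had 111 and 115 counts with DI and 129 and 77 counts with DMSO, a log2 fold change of 0.12 with a 95% interval from -0.41 to 0.64. Pex11g had 55 and 30 counts against 29 and 43 counts and a log2 fold change of 0.21 (-0.81 to 1.24), an interval too wide to say more. The annotated gene Gm44775, on the opposite strand, overlaps 41.1% of the exons of Pex11g, so that the counts of Pex11g are uncertain. An antisense gene, Gm17029, overlaps 28.3% of the exons of Pex14 and had a mean of 13.5 counts, against 442 to 511 counts for Pex14. With no strand setting stated, the reads of each such pair cannot be told apart where they overlap.

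Over the 15 tested Pex genes the median log2 fold change was 0.10, and 10 lay above 0. At an unadjusted p under 0.05 in the edgeR test there were 4 (26.7%, against 30% of all tested genes), Pex5 and Pex13 with higher and Pex16 and Pex10 with lower fitted values. Groups did not overlap in 8 (53.3%, against 58.6% of all tested genes), so that both shares were near those of all genes. None was called by the DESeq2 Wald test or limma-voom either. For 11 of the 15 the 95% interval lay within 0.5 of 0.

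**Figure D3:**
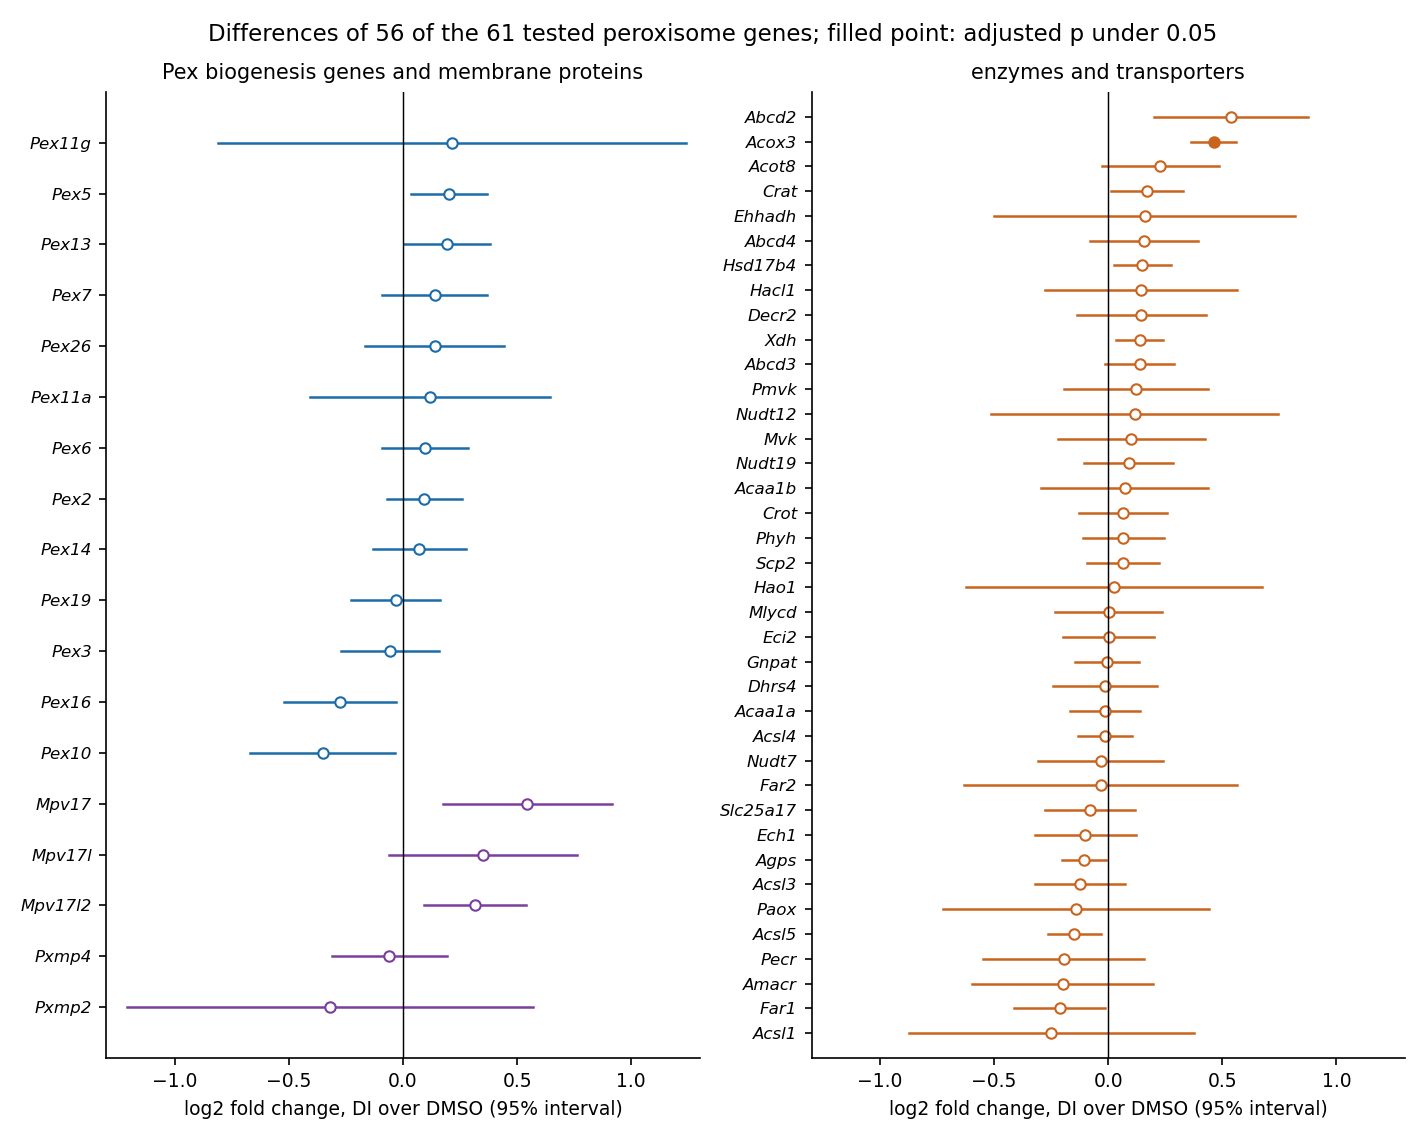
Log2 fold change (DI over DMSO) of 56 of the 61 tested members with its 95% interval, grouped into Pex genes, membrane proteins and enzymes and transporters. The interval of Acox3 runs from 0.36 to 0.56, well clear of 0, and most other intervals cross 0 or end close to it, the widest being that of Pex11g from -0.81 to 1.24.

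Among the membrane proteins, the Mpv17 family had the highest fitted values. Mpv17 encodes a small channel-like protein that was first assigned to peroxisomes and is now mostly placed in the inner mitochondrial membrane. It had 39.2 and 43.1 CPM with DI and 23.8 and 32.8 CPM with DMSO, so that the groups did not overlap but the DMSO libraries lay far apart. Its log2 fold change was 0.55 (SE 0.15, 95% interval 0.17 to 0.92, adjusted p = 0.0665 with edgeR). Mpv17 passed in 4 of the 11 other settings. Its log2 fold change was 0.79 without DMSO replicate 2 (adjusted p = 0.0140 with edgeR) and 0.33 without DMSO replicate 1 (adjusted p = 0.127 with edgeR), so that its size depended on which DMSO library was kept. Another gene on the same strand, Gm29609, overlaps 14.4% of its exons and had a mean of 10.5 counts.

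The relatives Mpv17l2 and Mpv17l also had higher values in both DI libraries. Mpv17l2, which encodes a mitochondrial relative of Mpv17, had 22.2 and 22.9 CPM with DI against 18.9 and 17.4 CPM with DMSO, a log2 fold change of 0.31 (SE 0.091, adjusted p = 0.0747 with edgeR). Mpv17l had 6.47 and 6.93 CPM against 5.85 and 4.62 CPM, with a log2 fold change of 0.35 (95% interval -0.06 to 0.76). The peroxisomal membrane proteins Pxmp2, a channel for small solutes, and Pxmp4 had fitted values below 0, with log2 fold changes of -0.32 (-1.21 to 0.57) and -0.06 (-0.31 to 0.19). The difference between the Mpv17 family and the Pxmp genes was not tested. The 5 membrane proteins summed to 84.2 and 89.9 CPM with DI and 65.0 and 73.7 CPM with DMSO.

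Among the importers of fatty acids, Abcd2 and Abcd3 encode ABC transporters of the peroxisome membrane. Abcd2 had 147 and 157 counts with DI and 116 and 90 counts with DMSO, or 8.56 and 8.37 CPM against 6.23 and 5.40 CPM. Both DI libraries were higher, with a log2 fold change of 0.54 (SE 0.14, 95% interval 0.20 to 0.88, adjusted p = 0.0534 with edgeR), just short of the threshold. Over the other settings its adjusted p ran from 0.0287, without a filter on low counts, to 0.206. Per length, Abcd2 was at 1.28 FPKM and Abcd3 at 8.68 FPKM over the 4 libraries. Abcd3, Abcd4 (a transporter of cobalamin in lysosomes) and Slc25a17 (a carrier of CoA and other cofactors) had log2 fold changes of 0.14, 0.16 and -0.08.

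Beta-oxidation in peroxisomes begins with an acyl-CoA oxidase. Acox3, described above, was the oxidase that passed the test. Acox2, the oxidase of bile acid intermediates, had no count in any library. Hsd17b4, the bifunctional enzyme of the next steps, had 126 and 122 CPM against 109 and 115 CPM and a log2 fold change of 0.15 (SE 0.050, adjusted p = 0.108 with edgeR). Ehhadh, the other bifunctional enzyme, had 46 to 63 counts in a library and a log2 fold change of 0.16 (-0.50 to 0.82).

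The thiolases, which end each turn of beta-oxidation, showed fitted values near 0, with log2 fold changes of -0.01 for Acaa1a, 0.07 for Acaa1b and 0.06 for Scp2. Acaa1b shares 84.5% of its transcript with Acaa1a at 96.6% identity, and Scp2 51.9% with the pseudogene Scp2-ps2, so that reads may have been split between them. Amacr, the racemase of branched substrates, and Pecr, a reductase, both had a fitted value of -0.20, Decr2 0.14, Eci2 0.00 and Ech1 -0.10. Together the 13 genes of beta-oxidation summed to 678 and 673 CPM with DI and 626 and 601 CPM with DMSO. Acox3, at 157 ± 1.17 CPM with DI and 114 ± 0.345 CPM with DMSO, was the part of this sum that passed the test.

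The acyl-CoA synthetases activate fatty acids before oxidation or storage. All 4 tested synthetases had fitted values below 0, and none passed. Acsl5 had 199 and 188 CPM with DI against 210 and 218 CPM with DMSO, a log2 fold change of -0.15 (SE 0.048, adjusted p = 0.0978 with edgeR), and Acsl3 and Acsl4 had -0.12 and -0.01. The DI replicates of Acsl1 lay far apart, with 136 and 75.1 CPM with DI and 119 and 132 CPM with DMSO. Its log2 fold change was -0.25 (95% interval -0.87 to 0.38), and it was called lower without DI replicate 1 (-0.74, adjusted p = 0.00251 with edgeR) but had a fitted value of 0.12 without DI replicate 2. Acsl1 thus depended on which DI library was kept.

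Alpha-oxidation removes the first carbon of phytanic acid. Phyh, its hydroxylase, had 28.9 ± 0.546 CPM with DI and 27.6 ± 0.74 CPM with DMSO, a log2 fold change of 0.07 (95% interval -0.11 to 0.24). Hacl1, its lyase, had a log2 fold change of 0.14 (-0.28 to 0.56). The annotated gene Gm49387 overlaps 31.1% of the exons of Hacl1 on the same strand.

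Ether lipid synthesis starts with Gnpat and Agps, while Far1 and Far2 supply the fatty alcohol. Agps had 166 and 168 CPM with DI and 180 and 180 CPM with DMSO, lower in both DI libraries by a small amount, with a log2 fold change of -0.11 (SE 0.040, adjusted p = 0.139 with edgeR). Far1, the enzyme that limits the rate of plasmalogen synthesis, had 53.1 and 59.9 CPM against 63.3 and 67.8 CPM and a log2 fold change of -0.21 (SE 0.081, adjusted p = 0.144 with edgeR). Gnpat had 64.2 ± 1.02 CPM with DI and 64.4 ± 0.922 CPM with DMSO, with a log2 fold change of 0.00 (95% interval -0.15 to 0.14), the narrow interval of a gene close to 0. The 4 ether lipid genes summed to 288 and 295 CPM with DI and 310 and 317 CPM with DMSO. Far2 had 51 to 68 counts in a library, and Ergic2, on the opposite strand with a mean of 846 counts, overlaps 11.4% of its exons. With scaling by library size alone, Far1 (-0.32), Acsl5 (-0.25) and Agps (-0.21) were called lower, and these directions are read against the shift of all genes in that setting.

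Of the genes that take chains off CoA or break CoA down, Crat, the carnitine acetyltransferase, had 70.6 and 66.8 CPM with DI and 62.7 and 59.4 CPM with DMSO, a log2 fold change of 0.17 (SE 0.065, adjusted p = 0.143 with edgeR). Crot, which transfers medium chains to carnitine and was the most abundant of this group per length, had 0.07 (95% interval -0.13 to 0.26). The thioesterase Acot8 had 0.23 (-0.03 to 0.48). The malonyl-CoA decarboxylase Mlycd and the nudix hydrolases Nudt7, Nudt12 and Nudt19 had 0.00, -0.03, 0.12 and 0.09.

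Xdh, the xanthine dehydrogenase that makes uric acid, was the most abundant member per length. It had 377 and 383 CPM with DI and 336 and 355 CPM with DMSO, higher in both DI libraries, with a log2 fold change of 0.14 (SE 0.042, 95% interval 0.04 to 0.24, adjusted p = 0.0821 with edgeR). The polyamine oxidase Paox had -0.14 (-0.72 to 0.44) and the hydroxyacid oxidase Hao1, with 25 to 33 counts in a library, 0.02 (-0.62 to 0.67). The kinases of isoprenoid synthesis Mvk and Pmvk had 0.10 and 0.12, and the carbonyl reductase Dhrs4 -0.01.

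The 12 members that were not tested were mostly silent in these cells. No count was found in any library for Pex5l, Acox2, Acsl6, Slc27a2, Baat, Agxt, Dao, Ddo, Hao2 and Pipox, of which several belong to the bile acid, glyoxylate and amino acid metabolism of liver and kidney. At this depth a count of 0 allows up to 3 counts, which is 0.160 to 0.180 CPM depending on the library. Hmgcll1 had 1 count in 1 DI library, and Ephx2, the soluble epoxide hydrolase, had 5 and 4 counts with DI and 4 and 2 counts with DMSO.

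Levels of different genes were compared only per length, in the deposited FPKM as a mean over the 4 libraries. Xdh at 78.9 FPKM and Acsl5 at 64.8 FPKM led, followed by Hsd17b4 at 28.8 to 31.0 FPKM over the libraries, Slc25a17 at 26.5 FPKM and Acsl4 at 26.4 FPKM. Among the Pex genes the order began with Pex19 at 10.3, Pex6 at 6.21, Pex16 at 5.75, Pex13 at 5.72 and Pex7 at 5.30 FPKM, and ended with Pex11g at 0.569 FPKM. The levels of Pex16 (4.86 to 6.57 FPKM over libraries) overlapped those of Pex6, Pex13 (5.36 to 6.08 FPKM) and Pex7. The place of Pex16 among them is thus not set, and Pex13 also overlapped Pex6 and Pex7. Slc25a17 likewise overlapped both Hsd17b4 and Acsl4 over the libraries, so that its place between them is not set. Phyh at 12.8, Agps at 16.4 and Dhrs4 at 13.3 FPKM led their own groups. Far2 at 0.442 FPKM had the lowest mean of the tested members, though its libraries overlapped those of Mpv17l.

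**Figure D4:**
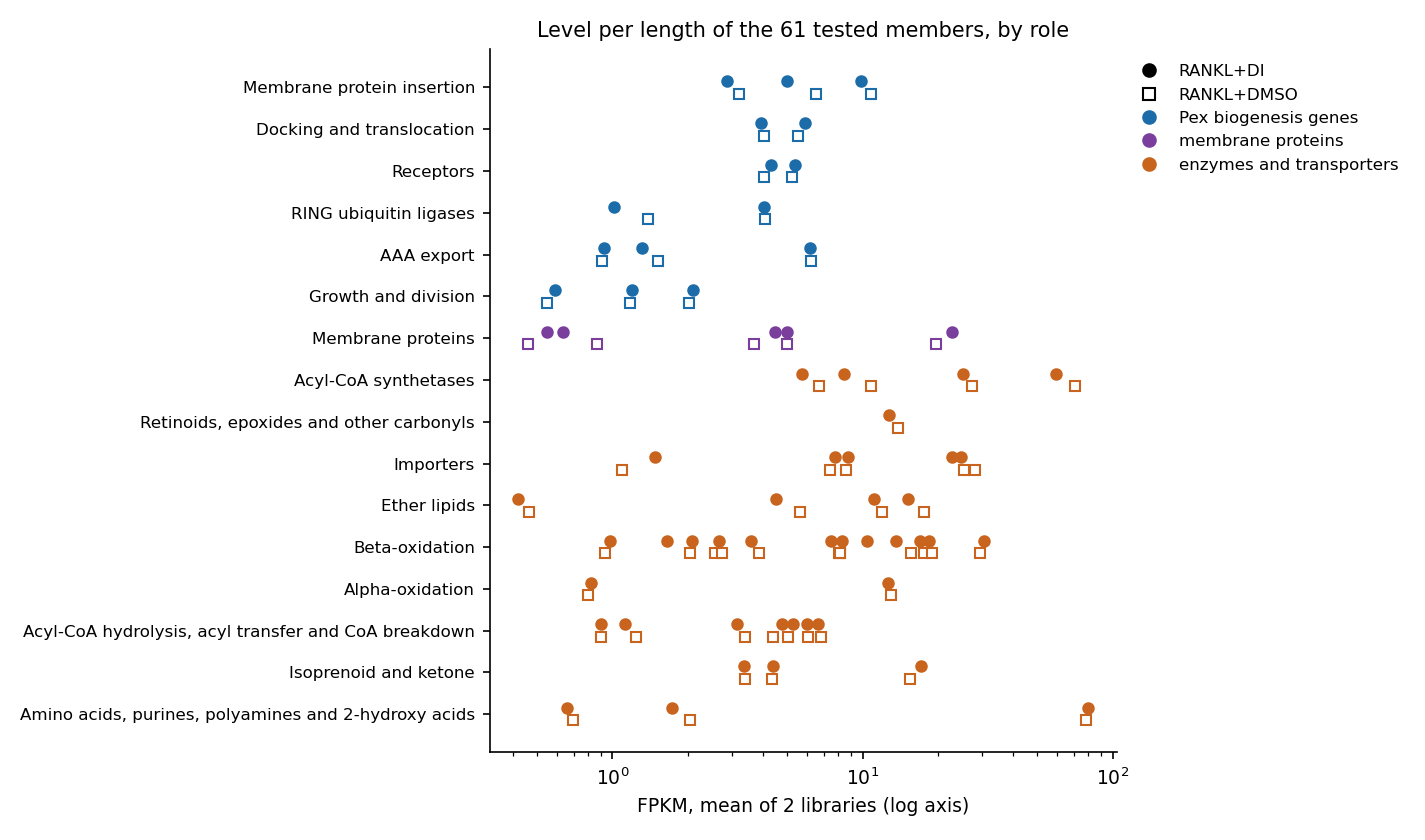
FPKM of the 61 tested members on a log axis, 1 row for each role, as the mean over DI and over DMSO libraries. Pex genes lie between 0.569 and 10.3 FPKM on average, and Xdh and Acsl5 are the highest members at 78.9 and 64.8 FPKM.

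Some members share a further pathway that the choice of members did not use. Of the 73, 13 are also in the KEGG PPAR signaling pathway, of which 10 were tested, and 11 are in Fatty acid degradation, of which 10 were tested. Acox3 was the called gene in each of these sets, which is 10% of the tested genes in each, against 14.8% of all tested genes. The medians were 0.02 and -0.01. Among members with an average log2 CPM of at least 3, where the test has more counts to work with, 1 of 46 was called against 18.5% of the 9275 genes at that level.

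Nuclear receptors, coactivators and transcription factors of lipid and organelle genes were set beside the members. Not all of them are known to control peroxisome abundance. PPARs are nuclear receptors that pair with RXRs and switch on genes of fatty acid oxidation, and TFE3 is a transcription factor of lysosome and organelle genes. Of 12 such regulators 9 were tested and 4 were called, where 14.8% of all tested genes were. Ppard, which encodes PPAR delta, had 560 and 643 counts with DI and 325 and 285 counts with DMSO, or 33.5 ± 1.18 against 17.3 ± 0.238 CPM. It rose with a log2 fold change of 0.95 (SE 0.079, adjusted p = 0.00180 with edgeR), more than any member.

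Rxra, the partner of PPARs, had 1534 and 1647 counts with DI and 1198 and 1063 counts with DMSO and rose by 0.47 on the log2 scale (SE 0.053, adjusted p = 0.00420 with edgeR). Tfe3 rose by 0.28 (SE 0.048, adjusted p = 0.0151 with edgeR). Nr1h3, which encodes the oxysterol receptor LXR alpha, had 259 and 263 counts with DI and 380 and 382 counts with DMSO and fell by 0.57 (SE 0.11, adjusted p = 0.0191 with edgeR). Pparg had a log2 fold change of -0.06 (95% interval -0.27 to 0.15). Ppara, the receptor through which peroxisome proliferators act in liver, and Rxrg had no count in any library, and the coactivator gene Ppargc1a had 0 to 6 counts. Whether the regulators differ as a group from the members was not tested.

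Peroxisome genes outside the KEGG pathway were close to the members. Of 16 such genes, which cover fission, tethering, proteases and removal of the organelle, 15 were tested, with a median log2 fold change of 0.04. None was called by edgeR, against 14.8% of all tested genes. An unadjusted p under 0.05 in the edgeR test was reached by 3, against 30% of all tested genes. The 3 were Trim37, which encodes a ubiquitin ligase of peroxisomes, with -0.17 (adjusted p = 0.132 with edgeR), Dnm1l, the dynamin that cuts peroxisomes and mitochondria, with -0.19 (adjusted p = 0.0672 with edgeR), and Nbr1, a receptor for their autophagy, with 0.20 (adjusted p = 0.0880 with edgeR). Of 19 genes of mitochondrial beta-oxidation 18 were tested, their median was 0.04, and only Cpt1a was called, where 14.8% of all tested genes were. Cpt1a, which admits long chains to mitochondria, had 2813 and 3034 counts with DI and 2391 and 2185 counts with DMSO and rose by 0.33 on the log2 scale (SE 0.042, adjusted p = 0.00597 with edgeR). All 9 antioxidant and related genes left out of the members were tested, and 4 were called higher and 1 lower. Of all tested genes, 7.14% were called higher and 7.7% lower.

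**Figure D5:**
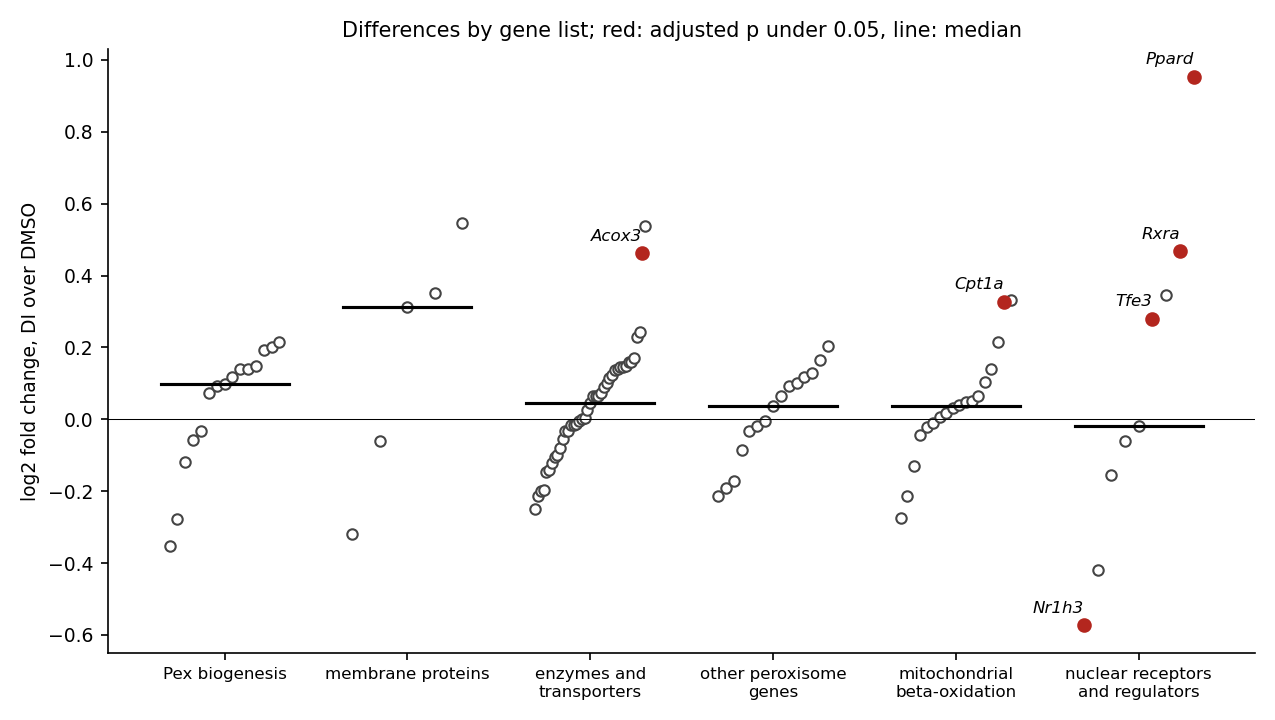
Log2 fold change (DI over DMSO) of each tested gene in the members' groups and in the lists set beside them, with called genes filled in red and a line at each median. Ppard at 0.95 lies above every member, and Acox3 is the called gene among the members.

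Promoters were read from RefSeq for GRCm38.p6, as the 250 bases before and 50 after a start, and 54 of the 73 members were matched, with 67 promoters. The letters TGACNNNGC, the core of the antioxidant response element bound by NRF2, were found on either strand in 10 member genes, which is 18.5% against 14% of the 27025 genes in the table. By group this was 2 of 11 matched Pex genes, 8 of 40 enzymes and none of 3 membrane proteins. The genes were Pex7, Pex11g, Scp2, Mvk, Pmvk, Ehhadh, Hao1, Nudt19, Acox2 and Acsl6. Acox2 and Acsl6 had no count, and none of the other 8 was called. The upstream region of Acox3 shown above does not hold these letters. A PPAR response element in its plain form, the letters AGGTCA repeated after any single base and read on either strand, was in none of the members' promoters and in 13 of all 32851 promoters (0.0396%). A match of letters is a description and not evidence of binding.

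The matches in Pex7, Pex11g, Scp2 and Mvk, picked after their values were seen, are printed as examples of what the search found, with 10 bases on each side, on the strand of the gene, and with the match in capitals. The 2 Pex7 windows are chr10:19907671-19907699 and chr10:19907728-19907756 on the minus strand, that of Scp2 is chr4:108118535-108118563 on the minus strand, that of Mvk chr5:114444038-114444066 on the plus strand and that of Pex11g chr8:3467649-3467677 on the minus strand.
Pex7 first: ccgggcgtcgGCGTCGTCActtccgcccg
Pex7 second: aatggtcctcGCGGCGTCAgttccctttt
Scp2: gccccgccccTGACGCTGCggccccgccc
Mvk: ggcccggggaTGACTCCGCcccgcagccg
Pex11g: caaaggagttTGACCCCGCcctgggtgac
The log2 fold changes of these genes were 0.14 for Pex7, 0.06 for Scp2, 0.10 for Mvk and 0.21 for Pex11g, none of them past the threshold. In Pex7 the matched letters are on the opposite strand, so that the printed capitals are their reverse complement. The Scp2 window lies inside the annotated gene (chr4:108043839-108144998), at an internal RefSeq start, as does the match in Pmvk. The log2 fold changes are those of the whole gene.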

How the data were processed

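Messenger RNA was sequenced from 2 libraries of DI and 2 of DMSO, grouped by the treatment in their labels. The authors deposited unnormalized read counts for each gene, and FPKM values computed from them, in 2 tables that hold identical values, and the second adds the KEGG terms that chose the members. Per the labels the genome build was GRCm38 (mm10). The aligner, counting program and its strand setting are not given in the sources used here.

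The members, roles and lists were chosen with earlier results of these data known. Genes named are the called members, all Pex and membrane genes, the most abundant member of each role, Phyh, Gnpat, Agps, members without counts and called genes of the lists. Some genes that this rule includes are not reported here by name and stay in the counts, medians and sums. Other members with values were named after their values were seen.

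Counts were tested in R 4.3.3 with edgeR 4.0.16 (default filter, TMM, quasi-likelihood fit on group alone), with p-values adjusted by Benjamini-Hochberg over 12590 genes and genes called at an adjusted p under 0.05. Standard errors were the size of the log2 fold change divided by the root of F, and 95% intervals from the moderated degrees of freedom (median 5.95). The common biological coefficient of variation was 0.0905. Library totals were 16085692 to 19403480 counts, TMM factors 0.963 to 1.04, and 16455 genes had no count. Floors are 3 counts and cover counting error only. Libraries of a group differed by more than sampling noise (chi-square per degree of freedom 7.57 for DI and 7.74 for DMSO). FPKM values were used only to compare levels between genes, since they are scaled by library size.

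Alternatives were DESeq2 1.42.0 size factors and Wald test, library size only, no filter, at least 10 counts in every library, limma 3.58.1 voom, the replicate number as a block, a log2 fold change of at least 0.5, each library left out, and, added after the data were seen, only genes with an average log2 CPM of at least 3. On simulated counts with 200 genes changed by a log2 fold change of 1 (about 12432 genes, 5 draws), 94.9% were recovered, 3.35% of calls were false and 95% of intervals held the true value. Only genes above a minimum mean count were changed, and the simulated spread followed the trend over genes, not each gene. No member had a fitted size above 0.545, so the recovered share does not apply to differences of the size seen here. Near-identical transcripts were sought with BLAST+ 2.17.0 in GENCODE M21. Targeting signals of the proteins were not analysed here.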

Additional observations from a re-analysis of the deposited data

How the results depend on the processing

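Acox3 was called in every alternative except an added minimum log2 fold change of 0.5, under which no enzyme was called, and DESeq2 size factors and the minimum of 10 counts left all counts of called members as they were. Scaling by library size only called 1 Pex gene and 4 enzymes, 4 members in all being lower, and gave medians of -0.00636 for Pex genes and -0.05849 for enzymes. It put these fitted values below 0: Acaa1b -0.0305, Crot -0.0376, Eci2 -0.1017, Hao1 -0.0784, Mlycd -0.101, Mvk -0.0021, Nudt19 -0.0139, Pex14 -0.0316, Pex2 -0.0101, Pex6 -0.0064, Phyh -0.0378 and Scp2 -0.0387. Without a filter 3 members were called higher and 2 enzymes called, and the median of the enzymes was 0.065, with Ephx2 and Hmgcll1 also fitted. The DESeq2 Wald test called 2 members higher. Limma-voom gave 0.0029 for Far2. The labels do not say whether the replicate numbers pair the libraries. The correlation of same-numbered deviations was -0.0302, which with 2 libraries a group cannot settle it. With the replicate number as a block 2 members were called higher, Mpv17 with an adjusted p of 0.0367 by edgeR, and 1389 of all genes were called. The other causes were not tested.

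With each library left out in turn, 1087 to 1394 genes, 1 to 2 enzymes, no Pex gene, 1 to 2 members higher and 0 to 1 lower were called. The medians were 0.0523 to 0.0855 for Pex genes and 0.00699 to 0.0367 for enzymes. Fitted values that crossed 0 ran from -0.0463 to 0.0213 for Acaa1a, -0.0252 to 0.1654 for Acaa1b, -0.7398 to 0.1231 for Acsl1, -0.0497 to 0.0237 for Acsl4, -0.0607 to 0.0367 for Dhrs4, -0.2026 to 0.0114 for Ech1, -0.0119 to 0.0165 for Eci2, -0.151 to 0.4298 for Ehhadh, -0.3011 to 0.2759 for Far2, -0.0195 to 0.0146 for Gnpat, -0.0006 to 0.2982 for Hacl1, -0.0847 to 0.1516 for Hao1, -0.0405 to 0.0459 for Mlycd, -0.0297 to 0.223 for Mvk, -0.1512 to 0.4264 for Nudt12, -0.3743 to 0.1533 for Paox, -0.1359 to 0.4447 for Pex11a, -0.3574 to 0.6429 for Pex11g, -0.001 to 0.1471 for Pex14, -0.1264 to 0.0667 for Pex19, -0.6481 to 0.0773 for Pxmp2, -0.1328 to 0.0148 for Pxmp4, -0.0008 to 0.1313 for Scp2 and -0.1669 to 0.0145 for Slc25a17. None of these was called with all libraries. Values that kept their sign could also move widely, from 0.0003 to 0.3088 for Decr2, 0.0024 to 0.2577 for Pmvk, 0.0053 to 0.1308 for Crot, 0.1972 to 0.5349 for Mpv17l and 0.3288 to 0.7935 for Mpv17. At 2 libraries a group the median half-width of a member's interval was 0.23 on the log2 scale, without adjustment over all genes. To be called, a typical member needed a larger fitted difference than that. Mpv17l2, at 0.31 with a half-width of 0.22, was not called (adjusted p = 0.0747 with edgeR).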
